A study of Mus musculus with 8 samples.

Results

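The genes described here encode the machinery that docks, primes and fuses synaptic vesicles. They were taken by symbol: the synaptotagmins (Syt), syntaxins (Stx), syntaxin-binding proteins (Stxbp), the SNAP proteins Snap23, Snap25, Snap29 and Snap47, Snap91, the vesicle-associated membrane proteins (Vamp), the synapsins (Syn1 to Syn3), the SV2 proteins (Sv2a to Sv2c), Rims1 to Rims4, Unc13a to Unc13d, Cadps, Cadps2, Nsf, Napa and Napb, with the complexins left out. The rule found 71 members among the 54735 genes of the count table. Of these, 66 passed the filter on low counts and were tested with 16538 genes in all. The other 5, Stx11, Stx19, Syt8, Vamp7 and Vamp9, were too low. Stx19, Syt8 and Vamp7 had a count of 0 in all 8 libraries, which allows a share of up to 1.21e-06% of the 248619858 counts (counting error only). Reads of Vamp7 may lie on its near-identical copy Vamp7-ps, so its level is uncertain.

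RNA was sequenced from punches of the ventral tegmental area (VTA), the midbrain region that holds dopamine neurons together with GABA and glutamate neurons, of 4 CTR and 4 SS mice of the DBA2/J strain, with 1 library per mouse. The CTR mice were unhandled controls whose litters were left undisturbed. The SS (social stress) mice had been placed as pups with a threatening adult mouse for 30 min per day from P14 to P21. The labels give the age as P21 and the sex as male for both groups, and the study's methods place tissue collection on the day after the last exposure. Litter mates could enter the same group and the litters are not given in the sources used here, so p-values measure the spread between these animals only. In the CTR group the total counts were 20036086 for CTR-1, 25399538 for CTR-2, 23512478 for CTR-3 and 39569142 for CTR-5. In the SS group they were 41509698 for SS-2, 47319997 for SS-3, 26024301 for SS-4 and 25248618 for SS-5.

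Transcripts that differ by sex went against the labels in 2 of the 8 libraries. Xist, the RNA that silences an X chromosome in female cells, had 14997 counts in CTR-5 and 6551 in SS-5 and between 0 and 3 in the other 6 libraries. The Y-linked genes Uty, Kdm5d, Ddx3y and Eif2s3y summed to 3 counts in CTR-5 and to 0 in SS-5, and to between 2293 and 7892 elsewhere. CTR-1 and CTR-2 also stood apart in the detection of low genes. Levels are in CPM, a gene's count scaled to a common normalized library size, and are listed by replicate number (1, 2, 3 and 5 for CTR, 2 to 5 for SS). Of 1989 genes with a mean of 1 to 3 CPM, CTR-1 lacked any count for 434 and CTR-2 for 354, while each of the other libraries lacked between 1 and 94.

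In a nerve terminal, a SNARE protein of the vesicle (VAMP, also called synaptobrevin) pairs with SNARE proteins of the plasma membrane (a syntaxin and SNAP-25), and their assembly pulls the membranes together. Proteins of the UNC13, CAPS and RIM families prepare vesicles for fusion, synaptotagmins sense calcium, SV2 proteins and synapsins reside on the vesicle, and NSF with its SNAP adaptors takes spent SNARE complexes apart. Midbrain dopamine neurons release transmitter both from their axon terminals and from the cell body and dendrites within the VTA.

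Among the release machinery genes, 4 were called as different between SS and CTR by DESeq2 and 0 by edgeR. Sv2c and Cadps2 were at 38.7% and 39.1% of their CTR mean, Snap25 was at 77.7%, and Unc13c was at 147.5%. Of the 66 tested members, 40 (60.6%) lay within 0.2 of no change on the log2 scale, near the 51.4% of all genes tested, and the median log2 fold change of the members was -0.035, beside 0.0037 over all genes tested. With edgeR's quasi-likelihood test, adjusted over all genes tested, 0 of the 66 members were called at an adjusted p under 0.05 (background 14 of 16538 genes, 0.0847%). At an unadjusted p under 0.05, 11 members were lower in SS and 4 were higher. That is 16.7% of the tested members against a background of 3.7% for lower values, and 6.06% against 2.85% for higher values. Without SS-4 the count of 11 was 4 (6.06%, beside 2.06% of all genes). It was 6 (9.09%) without SS-2 or without SS-3, beside 2.46% and 2.1% of all genes, and 7 (10.6%) without SS-5 or without CTR-3, beside 2.64% and 3.88%. The count of 4 was 2 (3.03%) without SS-2, beside 2.01% of all genes. Without CTR-5, 12.1% of the members were lower and 6.06% higher, beside 6.59% and 6.8% of all genes. Without CTR-5 and SS-5 these shares were 12.1% and 4.55%, beside 5.54% and 5.06%. With the replicate number as a block they were 18.2% and 1.52%, beside 2.14% and 2.45%.

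Other tools called between 1 and 4 members. DESeq2 with default options called Sv2c, Cadps2 and Snap25 as lower and Unc13c as higher in SS (4 of the 66 members, or 6.06%). Over the genes of the same filter DESeq2 called 75, or 0.454%, and over all 19349 genes it adjusted 81, or a background of 0.419%. The count of 4 was 2 without CTR-2 (among 72 genes) and 2 without SS-4 (among 41 genes), and without CTR-5 DESeq2 called 6 members among 684 genes. The bias-adjusted estimate of edgeR's test called Sv2c and Cadps2 (background 0.163%), and limma voom called Sv2c (background 0.103%). Leaving out 1 library also moved edgeR's own call: Sv2c passed without CTR-2 (adjusted p = 0.0446, range 0.0446 to 0.342 over the libraries left out) and Cadps2 without CTR-3 (0.0412, range 0.0412 to 0.39). The 4 SS libraries lay below all 4 CTR libraries for 6 members, or 9.09% (Sv2c, Cadps2, Snap25, Rims1, Snap29 and Syn1; background 2.21%), and above them for 4 members, or 6.06% (Unc13c, Stx2, Rims3 and Sv2a; background 2.47%). The latter count was 7, or 10.6%, without CTR-5 and also without SS-4, beside 7.95% and 3.95% of all genes. Without CTR-5 and SS-5, the libraries whose sex transcripts go against the labels, 11 members (16.7%) lay below and 10 (15.2%) above, beside 9.34% and 10.7% of all genes.

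**Figure D1:**
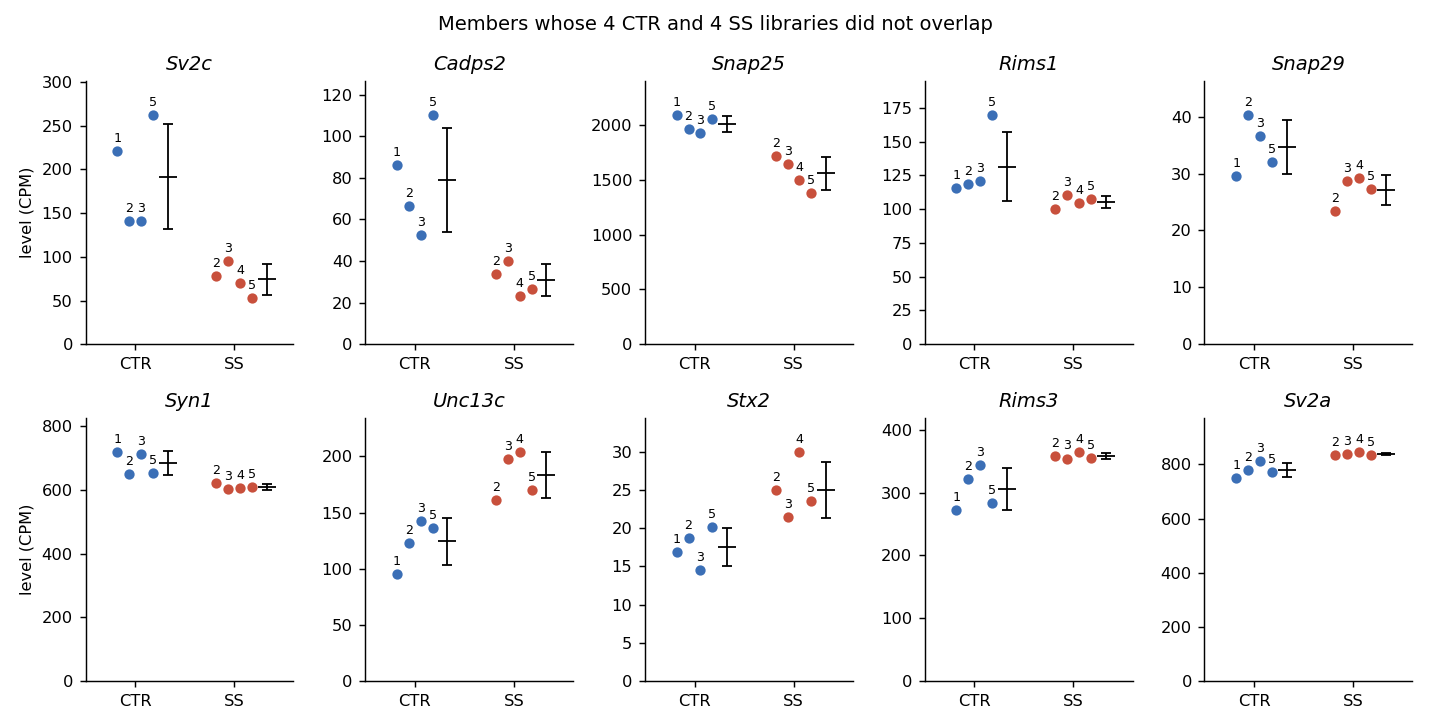
Level in CPM (vertical axes, each from 0) of the 10 members whose groups did not overlap, with a point per library numbered by its replicate and the mean ± SD of 4 libraries in black. Sv2c lies between 53 and 95.5 CPM in SS and between 141 and 262 CPM in CTR, while the gap between groups is narrow for Rims1, Snap29, Rims3 and Sv2a.

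The SV2 proteins are transporter-like glycoproteins of the vesicle membrane, and Sv2c is known for its expression in the basal ganglia and midbrain dopamine neurons. Sv2c was measured at 221 CPM (CTR-1), 141 CPM (CTR-2), 141 CPM (CTR-3) and 262 CPM (CTR-5) in the controls, and at 78 CPM (SS-2), 95.5 CPM (SS-3), 70.3 CPM (SS-4) and 53 CPM (SS-5) after stress. Every SS library was below every CTR library, and within CTR the values of CTR-1 and CTR-5 were well above those of CTR-2 and CTR-3. DESeq2 called Sv2c and edgeR did not (log2 fold change -1.37 ± 0.22 SE, edgeR adjusted p = 0.053, DESeq2 adjusted p = 1.1e-06). Leaving out each library in turn gave log2 fold changes from -1.51 to -1.18, and the value without CTR-5 and SS-5 was -1.05.

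Sv2a, the SV2 protein found at most synapses, had the highest level per length of the family, 168 ± 5.59 CPM per kb of exon in CTR (SD, n = 4). Its levels were 749, 781, 812 and 773 CPM in CTR samples, against 834, 838, 846 and 835 CPM in SS samples, so the groups did not overlap, but the difference was small (log2 fold change 0.11 ± 0.06 SE, edgeR adjusted p = 0.78, DESeq2 adjusted p = 0.62). Sv2b, chosen after its values were seen, was measured at 96.5, 156, 102.1 and 198 CPM in CTR samples, against 107, 96, 82.8 and 102.1 CPM in SS samples. The CTR values of Sv2b were high in CTR-2 and CTR-5 and the other libraries of both groups overlapped (log2 fold change -0.51 ± 0.20 SE, edgeR adjusted p = 0.76, DESeq2 adjusted p = 0.44). The log2 fold change of Sv2b was -0.29 without CTR-5 and -0.03 without CTR-2 and CTR-5, and -0.65 without CTR-1, where DESeq2 called it. Per length, Sv2c made up 9.63 ± 2.79% of the SV2 transcripts in CTR and 3.82 ± 0.874% in SS (SD, n = 4).

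CAPS proteins prime dense-core vesicles, and in part synaptic vesicles, for release. Cadps2 was found at 86.4, 66.5, 52.6 and 110.1 CPM in CTR samples, against 34, 40.1, 23 and 26.3 CPM in SS samples. The SS libraries were again all lower, with CTR-5 and CTR-1 the highest of the CTR libraries (log2 fold change -1.35 ± 0.23 SE, edgeR adjusted p = 0.072, DESeq2 adjusted p = 1.6e-05). Over the fits that lack 1 library, its log2 fold change lay between -1.51 and -1.15. It was -1.08 without CTR-5 and SS-5, and DESeq2 called it each time 1 library was left out, but not without both CTR-1 and CTR-2 (adjusted p = 0.0784, range 9.75e-08 to 0.0784). Its paralog Cadps was measured at 239, 336, 335 and 334 CPM in CTR samples, against 343, 322, 339 and 327 CPM in SS samples. CTR-1 was low for Cadps and the other 7 libraries lay close together. Of the CAPS transcripts per length, Cadps2 accounted for 28.5 ± 7.97% in CTR and 12.7 ± 2.91% in SS.

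Sv2c and Cadps2 lie on different chromosomes, and no annotated exon of another gene overlaps theirs. Sv2c is at chr13:95954594-96132577 and Cadps2 at chr6:23262773-23839421, both on the minus strand of GRCm38 (GENCODE M21). Since both were called lower in SS by DESeq2 and Unc13c (chr9:73479422-73968966, minus strand) was called higher, their promoter windows are given, from 250 bases before to 50 after the start, as RefSeq on GRCm38.p6 has them, 5′ to 3′ on the gene's strand. Capitals mark matches on either strand to the motifs searched, which were the GC box GGGCGG, the E-box CACGTG, the cyclic AMP response element TGACGTCA, the Pitx-type site TAATCC and the Nr4a-type site AAAGGTCA. No matches overlapped in these windows.
Sv2c, chr13:96132528-96132827: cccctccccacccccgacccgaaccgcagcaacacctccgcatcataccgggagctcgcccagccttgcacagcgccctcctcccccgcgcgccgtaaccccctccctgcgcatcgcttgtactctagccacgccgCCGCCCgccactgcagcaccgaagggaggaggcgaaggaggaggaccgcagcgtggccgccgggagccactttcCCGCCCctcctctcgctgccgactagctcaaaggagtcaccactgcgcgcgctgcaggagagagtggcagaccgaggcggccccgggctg
Cadps2, chr6:23839372-23839671: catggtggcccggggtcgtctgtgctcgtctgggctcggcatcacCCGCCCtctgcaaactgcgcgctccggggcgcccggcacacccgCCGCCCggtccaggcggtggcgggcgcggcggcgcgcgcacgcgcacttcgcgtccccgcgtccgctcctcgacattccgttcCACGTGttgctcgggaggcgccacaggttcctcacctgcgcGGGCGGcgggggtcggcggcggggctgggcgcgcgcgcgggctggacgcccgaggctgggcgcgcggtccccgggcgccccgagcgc
Unc13c, chr9:73968988-73969287: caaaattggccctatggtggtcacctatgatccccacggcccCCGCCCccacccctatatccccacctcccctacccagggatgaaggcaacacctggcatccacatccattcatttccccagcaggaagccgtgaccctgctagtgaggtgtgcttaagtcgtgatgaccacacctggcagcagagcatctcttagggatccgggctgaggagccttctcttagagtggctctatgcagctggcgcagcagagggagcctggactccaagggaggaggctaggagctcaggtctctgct

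The Sv2c window held 2 GC boxes, that of Cadps2 held 3 GC boxes and 1 E-box, and that of Unc13c held 1 GC box. None of these 3 windows held the other motifs. Promoter windows were found for 55 of the 71 members (70 windows, some overlapping), and none was found for Snap25. A GC box was in 46 of these windows (65.7%), beside 35.7% of all 32851 windows, and an E-box in 11 (15.7%, beside 7.15%). The cyclic AMP response element was in 3 (4.29%, beside 1.79%), the Pitx-type site in 4 (5.71%, beside 7.06%) and the Nr4a-type site in 0 (beside 1.51%). The windows of Sv2c, Cadps2 and Unc13c had a GC content of 71.7%, 79.7% and 59.3%, beside a mean of 53.8% over all windows. A match describes these letters only.

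Unc13 proteins open syntaxin so that SNARE complexes can form, and Unc13c (Munc13-3) is the form known from cerebellar granule cells. Unc13c was higher in SS, with 95.6, 122.8, 142 and 136 CPM in CTR samples, against 161, 198, 204 and 170.2 CPM in SS samples. All SS libraries were above all CTR libraries, and CTR-1 was the lowest (log2 fold change 0.56 ± 0.13 SE, edgeR adjusted p = 0.42, DESeq2 adjusted p = 0.025). DESeq2 did not call it without CTR-2 (adjusted p = 0.082), without SS-3 (0.235) or without SS-4 (0.318), in a range of 0.00405 to 0.318. Its log2 fold change without CTR-5 and SS-5 was 0.64, and without CTR-1 and CTR-2 it was 0.40, where DESeq2 did not call it either (adjusted p = 0.0541). Unc13a, the main form in forebrain synapses, was at 153, 141, 163 and 238 CPM in CTR samples, against 174, 177, 164 and 166 CPM in SS samples. CTR-5 was the highest library for Unc13a, and the other CTR libraries were below all SS libraries. Per length, Unc13a and Unc13c were at similar CTR levels (13.8 ± 3.48 and 14.1 ± 2.37 CPM per kb, SD, n = 4), while Unc13b was at 0.845 ± 0.251 and Unc13d at 0.123 ± 0.132. Exons of Unc13a share 495 bases with Colgalt1 on the other strand, and whether reads were counted by strand is not stated in the sources used here.

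The RIM proteins organize the active zone and tie calcium channels to docked vesicles. Rims1 was at 116, 119, 121 and 169 CPM in CTR samples, against 99.9, 110.2, 105 and 107 CPM in SS samples. The SS libraries were all lower, but CTR-1, CTR-2 and CTR-3 lay just above them and CTR-5 far above (log2 fold change -0.32 ± 0.13 SE, edgeR adjusted p = 0.76, DESeq2 adjusted p = 0.49). The log2 fold change of Rims1 was -0.17 without CTR-5 and -0.46 without CTR-1 and CTR-2, where DESeq2 called it. Rims3, which lacks most of the domains of the long RIMs and was the most abundant RIM per length (38.4 ± 4.21 CPM per kb in CTR), was at 273, 322, 345 and 283 CPM in CTR samples, against 359, 354, 365 and 355 CPM in SS samples. These SS values were tightly grouped above all CTR values (log2 fold change 0.23 ± 0.09 SE, edgeR adjusted p = 0.76, DESeq2 adjusted p = 0.43). Rims2 and Rims4 had overlapping groups, with means of 93.4 ± 11.8 and 67.6 ± 9.25 CPM in CTR against 94.4 ± 8.55 and 61.6 ± 4.18 CPM in SS (SD, n = 4).

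**Figure D2:**
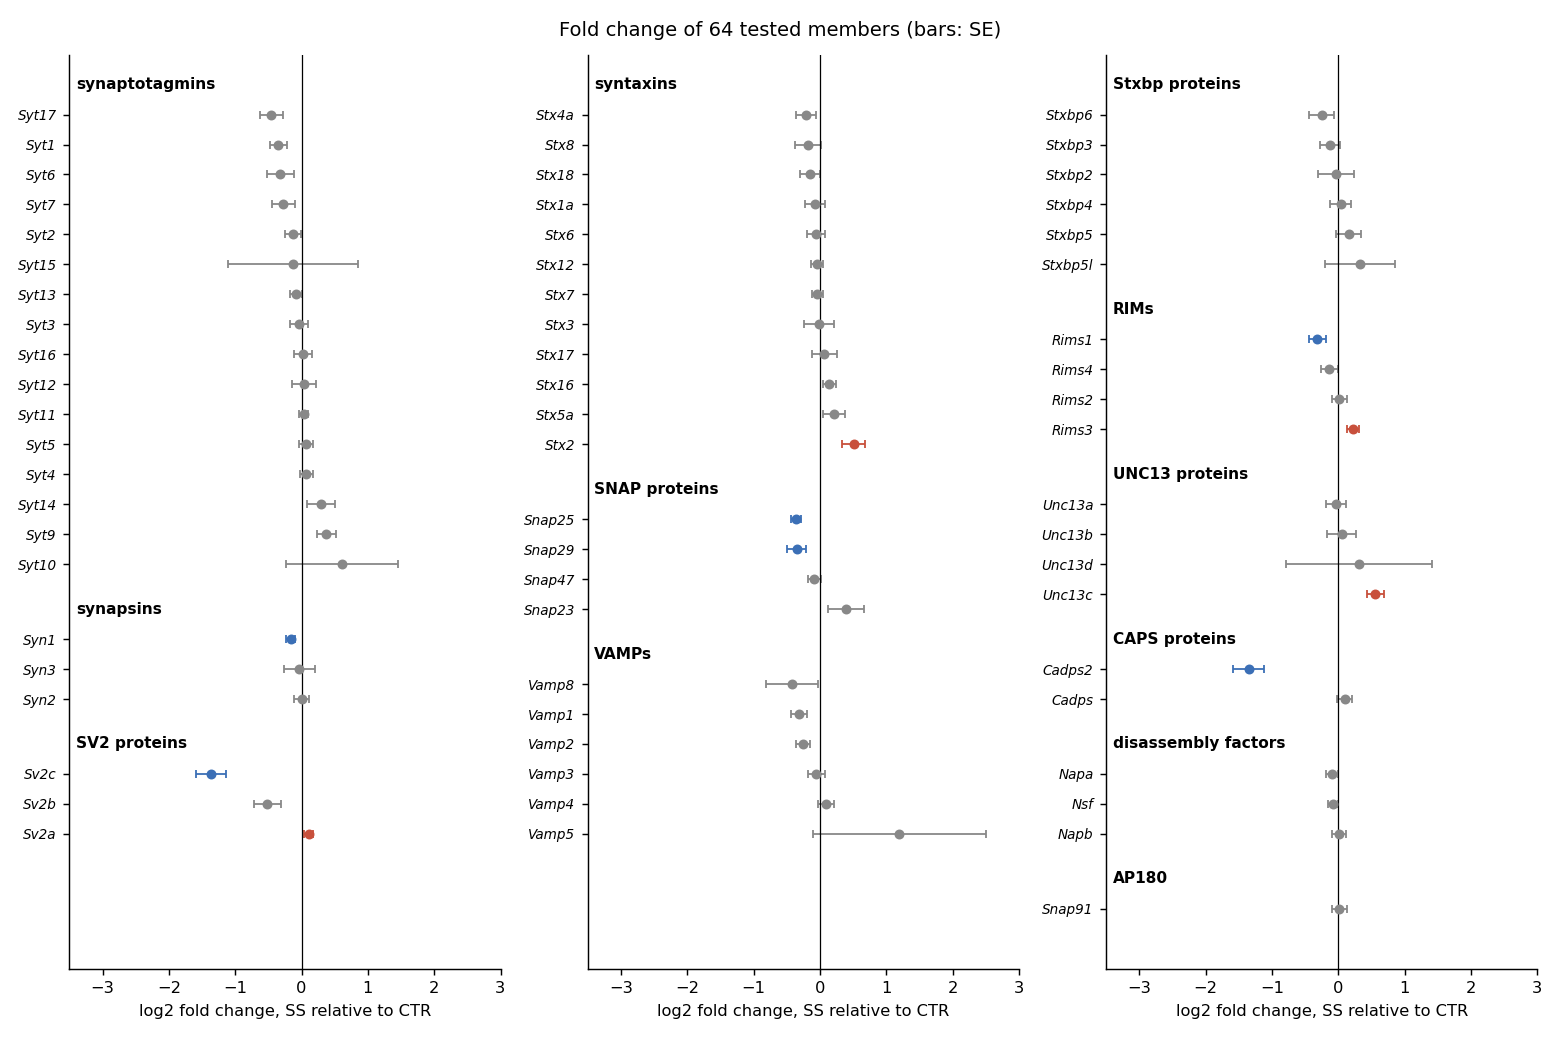
Log2 fold change of SS relative to CTR (horizontal axis) for 64 tested members by family, with bars showing the SE from edgeR. Blue marks the 6 members with all SS libraries below all CTR libraries, red the 4 members with all above, and grey the rest. Sv2c (-1.37) and Cadps2 (-1.35) have the lowest values, and wide bars belong to members with few counts, such as Vamp5 and Syt10.

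Among the SNARE proteins, Snap25, the neuronal plasma membrane SNARE, had the highest level per length of all members in CTR, 296 ± 11.1 CPM per kb, close to that of Vamp2, and was at 229.5 ± 22 CPM per kb in SS, below Vamp2 (SD, n = 4). Snap25 was measured at 2088, 1964, 1924 and 2051 CPM in CTR samples, against 1717, 1641, 1495 and 1382 CPM in SS samples. The CTR libraries lay within a narrow range and all SS libraries were below it (log2 fold change -0.36 ± 0.08 SE, edgeR adjusted p = 0.24, DESeq2 adjusted p = 0.011). DESeq2 did not call Snap25 without CTR-2 (adjusted p = 0.055) or without SS-4 (0.205), in a range of 0.00354 to 0.205. Leaving out CTR-5 and SS-5 gave a log2 fold change of -0.30.

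Its relative Snap23, which serves fusion outside neurons and at dendrites, was far lower per length (2.29 ± 0.827 CPM per kb in CTR) and the groups overlapped, with 5.58, 8.81, 14 and 11 CPM in CTR samples, against 11.2, 11.4, 16 and 13.4 CPM in SS samples. Snap29, which takes part in fusion of autophagosomes and other organelles, was at 29.6, 40.2, 36.7 and 32 CPM in CTR samples, against 23.4, 28.8, 29.2 and 27.2 CPM in SS samples. The highest SS library was just below the lowest CTR library (log2 fold change -0.35 ± 0.15 SE, edgeR adjusted p = 0.76, DESeq2 adjusted p = 0.5), and 60 bases of its exons are shared with Pi4ka on the other strand. Snap47 (chosen after its values were seen) had means of 443 ± 64.8 CPM in CTR against 418 ± 7.88 CPM in SS.

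Vamp2 and Vamp1 are the vesicle SNAREs of synapses, Vamp2 broadly and Vamp1 mainly in hindbrain, spinal cord and fast-firing neurons. Vamp1 was chosen after its values were seen. Vamp2, the most abundant of its family per length (291 ± 35.6 CPM per kb in CTR and 244 ± 25.4 in SS), was at 1259, 1128, 1119 and 929.8 CPM in CTR samples, against 829.7, 891, 932 and 1059 CPM in SS samples. CTR-5 lay within the range of the SS libraries (log2 fold change -0.26 ± 0.10 SE, edgeR adjusted p = 0.76, DESeq2 adjusted p = 0.51). The levels of Vamp1 were 542, 459, 493 and 367 CPM in CTR samples, against 410.1, 404, 369.9 and 315 CPM in SS samples, and again CTR-5 alone among the CTR libraries was below the highest SS libraries (log2 fold change -0.31 ± 0.12 SE, edgeR adjusted p = 0.76, DESeq2 adjusted p = 0.48). With CTR-5 left out, DESeq2 called both, and the log2 fold changes in edgeR were -0.33 for Vamp2 and -0.41 for Vamp1. DESeq2 also called both without CTR-5 and SS-5 (-0.40 and -0.34 in edgeR). Without CTR-1 and CTR-2 the edgeR values fell to -0.14 and -0.20, and DESeq2 called neither. The other tested Vamp members (Vamp3, Vamp4, Vamp5 and Vamp8) had overlapping groups.

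Of the syntaxins, Stx1a, which sits in the presynaptic membrane, was at 24 ± 3.28 CPM per kb in CTR and 22.7 ± 4.11 in SS (SD, n = 4). Of the 13 tested syntaxins, 10 (76.9%) lay within 0.2 of no change on the log2 scale, beside 51.4% of all genes tested. Stx2, a syntaxin of many cell types outside synapses as well, was at 16.8, 18.7, 14.5 and 20.2 CPM in CTR samples, against 25, 21.4, 29.98 and 23.6 CPM in SS samples. All SS libraries were above all CTR libraries at a low level (log2 fold change 0.51 ± 0.17 SE, edgeR adjusted p = 0.71, DESeq2 adjusted p = 0.29).

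**Figure D3:**
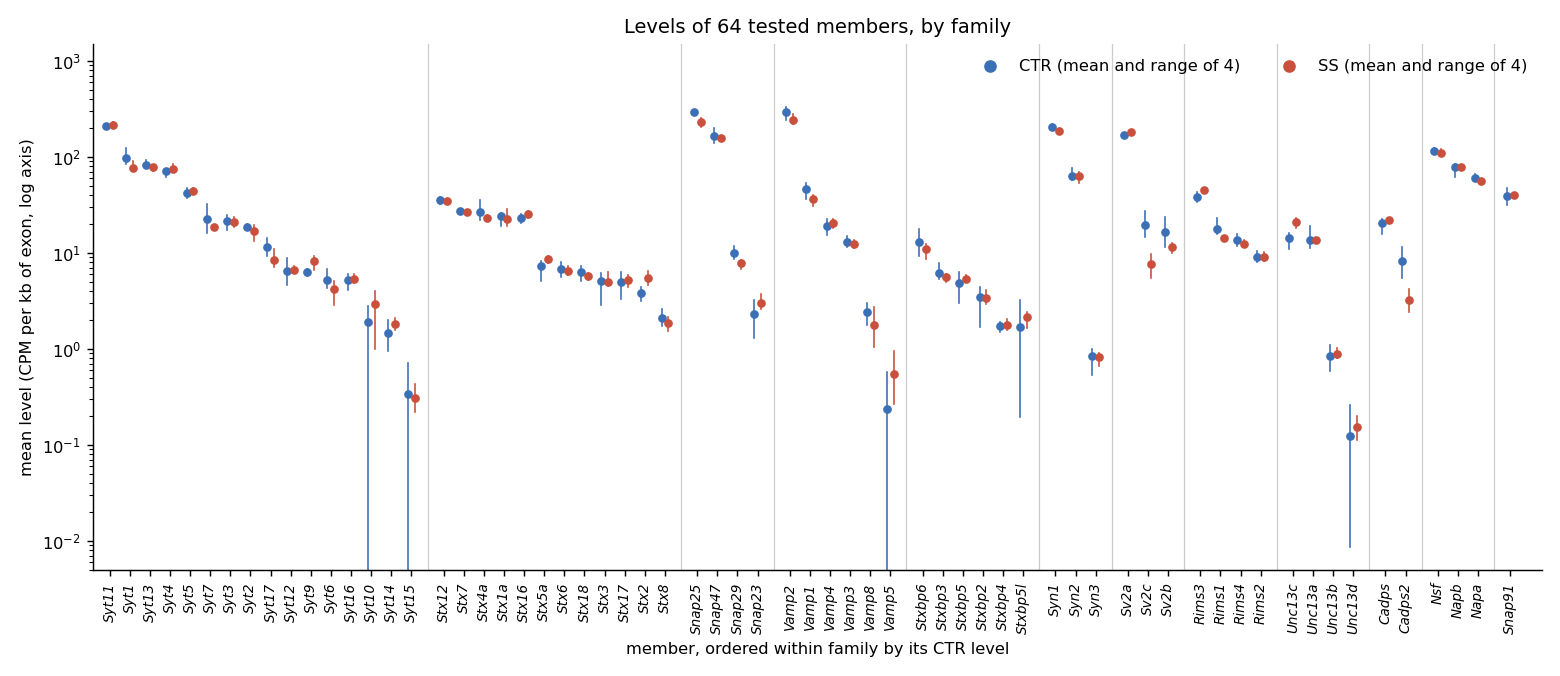
Mean level in CPM per kb of exon (log axis) of 64 tested members, grouped by family and ordered by the CTR level, with lines from the lowest to the highest of 4 libraries. A line that reaches the foot of the axis includes a library at 0. Snap25, Vamp2, Syt11, Syn1 and Sv2a lead their families, at 168 to 296 CPM per kb in CTR.

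None of the 7 Stxbp members was called by edgeR or DESeq2, and 0 had an unadjusted p under 0.05 in edgeR (all genes tested, 3.7% lower and 2.85% higher). The same held for the disassembly factors: Nsf, the ATPase, was at 968 ± 51.5 and 918 ± 78.8 CPM, Napa at 227 ± 20.1 and 213 ± 5.57 CPM, and Napb at 548 ± 77 and 551 ± 20.3 CPM in CTR and SS (SD, n = 4). Snap91 (AP180), a clathrin adaptor that retrieves vesicle membrane and shares only its name with the SNAP proteins, was at 359 ± 58.8 CPM in CTR against 364 ± 10.4 CPM in SS.

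Among the synaptotagmins, the most abundant per length was Syt11, which does not bind calcium, at 212 ± 11.1 CPM per kb in CTR and 217 ± 8.77 in SS. Syt1, the fast calcium sensor of most forebrain synapses, was at 696, 814, 721 and 1029 CPM in CTR samples, against 605, 602, 606 and 750.5 CPM in SS samples. SS-5 was above CTR-1 and CTR-3, so the groups overlapped, and CTR-5 was the highest of all (log2 fold change -0.35 ± 0.13 SE, edgeR adjusted p = 0.76, DESeq2 adjusted p = 0.4). The log2 fold change was -0.21 without CTR-5 and -0.14 without CTR-2 and CTR-5. It was -0.30 without CTR-5 and SS-5 and -0.45 without CTR-1 and CTR-2, and DESeq2 called Syt1 in both of these fits. Syt2, the fast sensor of many hindbrain and fast-firing neurons, was at 154, 131, 149 and 136 CPM in CTR samples, against 148, 143, 127 and 102.3 CPM in SS samples. Its groups overlapped. Syt17 had means of 60.2 ± 11.2 CPM in CTR against 44 ± 8.79 CPM in SS (log2 fold change -0.45 ± 0.17 SE, edgeR adjusted p = 0.76, DESeq2 adjusted p = 0.43), and Syt9 of 25 ± 1.95 and 32.4 ± 4.25 CPM (log2 fold change 0.37 ± 0.14 SE, edgeR adjusted p = 0.76, DESeq2 adjusted p = 0.42). Syt1, Syt17 and Syt9 were chosen after their values were seen. None of the 16 tested synaptotagmins was without overlap, and with all libraries edgeR and DESeq2 called none of them. In edgeR, 2 (12.5%) were lower and 1 (6.25%) higher in SS at an unadjusted p under 0.05, beside 3.7% and 2.85% of all genes tested.

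Synapsins tether vesicles in the reserve pool. Syn1, the most abundant synapsin per length (207 ± 11.4 CPM per kb in CTR), was at 719, 649, 713 and 653 CPM in CTR samples, against 623, 602, 607 and 608 CPM in SS samples. The SS libraries were within a narrow range below all CTR libraries (log2 fold change -0.16 ± 0.07 SE, edgeR adjusted p = 0.76, DESeq2 adjusted p = 0.44). Syn2 had overlapping groups, 443 ± 61.6 CPM in CTR against 443 ± 53.9 CPM in SS. For Syn3, of which 1733 exon bases are shared with Timp3 on the other strand, the level is uncertain, at 10.4 ± 2.67 CPM in CTR against 10.2 ± 1.34 CPM in SS.

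Summed over all 71 members, the level was 15637, 15838, 16022 and 16258 CPM in CTR samples, against 14998, 15047, 14538 and 14482 CPM in SS samples. No SS library reached a CTR library, with means of 15939 ± 264.6 CPM for CTR against 14766 ± 297.5 CPM for SS (SD, n = 4). Of the net difference of -1173 CPM, Snap25 made up 38.2%, Vamp2 15.5%, Syt1 14.9% and Sv2c 10%. Members that rose offset part of the falls, so the shares of all falling members together exceed 100%. The groups stayed apart with DESeq2's size factors (lowest CTR library 15761, highest SS library 15013 CPM) and with upper-quartile normalization (15868 and 14957 CPM). As a share of raw counts they overlapped, at 1.51, 1.54, 1.58 and 1.61% for CTR against 1.51, 1.53, 1.48 and 1.49% for SS. The TMM factors themselves lay between 0.967 and 0.994 in CTR and between 1.009 and 1.03 in SS.

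Markers of dopamine neurons were lower in SS, as Sv2c and Cadps2 were. No marker was called higher, and of 12 dopamine neuron markers 7 were called lower in SS by edgeR, beside 0.0847% of all genes tested. DESeq2 called 8 of these markers lower (66.7%, beside 0.454% of all genes tested). Their summed level was 2841, 1661, 1327 and 2471 CPM in CTR samples, against 593, 542, 556 and 509 CPM in SS samples (for each list, the top gene is that with the highest mean CPM over the 8 libraries, here Dlk1). The dopamine transporter Slc6a3 was at 598, 336, 243 and 613 CPM in CTR samples, against 3.11, 2.72, 7.46 and 11.5 CPM in SS samples (log2 fold change -6.22 ± 0.51 SE, edgeR adjusted p = 0.00053, DESeq2 adjusted p = 7.8e-24), and Th, the enzyme that makes L-DOPA, at 472, 161, 169 and 322 CPM in CTR samples, against 15.7, 15.8, 14.1 and 25.5 CPM in SS samples (log2 fold change -3.98 ± 0.35 SE, edgeR adjusted p = 0.00053, DESeq2 adjusted p = 1.8e-16). Slc18a2, the vesicular monoamine transporter, had a log2 fold change of -2.72 ± 0.42 (edgeR adjusted p = 0.036). Slc18a2 was not called by edgeR without CTR-1 (adjusted p = 0.0634), CTR-5 (0.0674), SS-2 (0.205), SS-3 (0.174) or SS-4 (0.288), in a range of 0.00605 to 0.288. Pitx3 had a count of 0 in SS-3 and SS-4. The markers Nr4a2 and Lmx1b, chosen like Pitx3 after their values were seen, had overlapping groups. Within CTR, CTR-1 and CTR-5 were the highest libraries for Slc6a3, Th, the summed list, Sv2c and Cadps2. CTR-5 came first for Slc6a3, Sv2c and Cadps2, CTR-1 for Th and the sum, and Aldh1a1, a retinoic acid enzyme of the list, was highest in CTR-2. In SS, Slc6a3 was highest in SS-5, where Sv2c was lowest. Sv2c and Cadps2 kept 38.7% and 39.1% of their CTR level where Slc6a3 kept 1.38%. In bulk tissue, fewer cells of a type and less RNA per cell cannot be told apart, and the part of dopamine neurons in the values of Sv2c and Cadps2 was not tested.

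**Figure D4:**
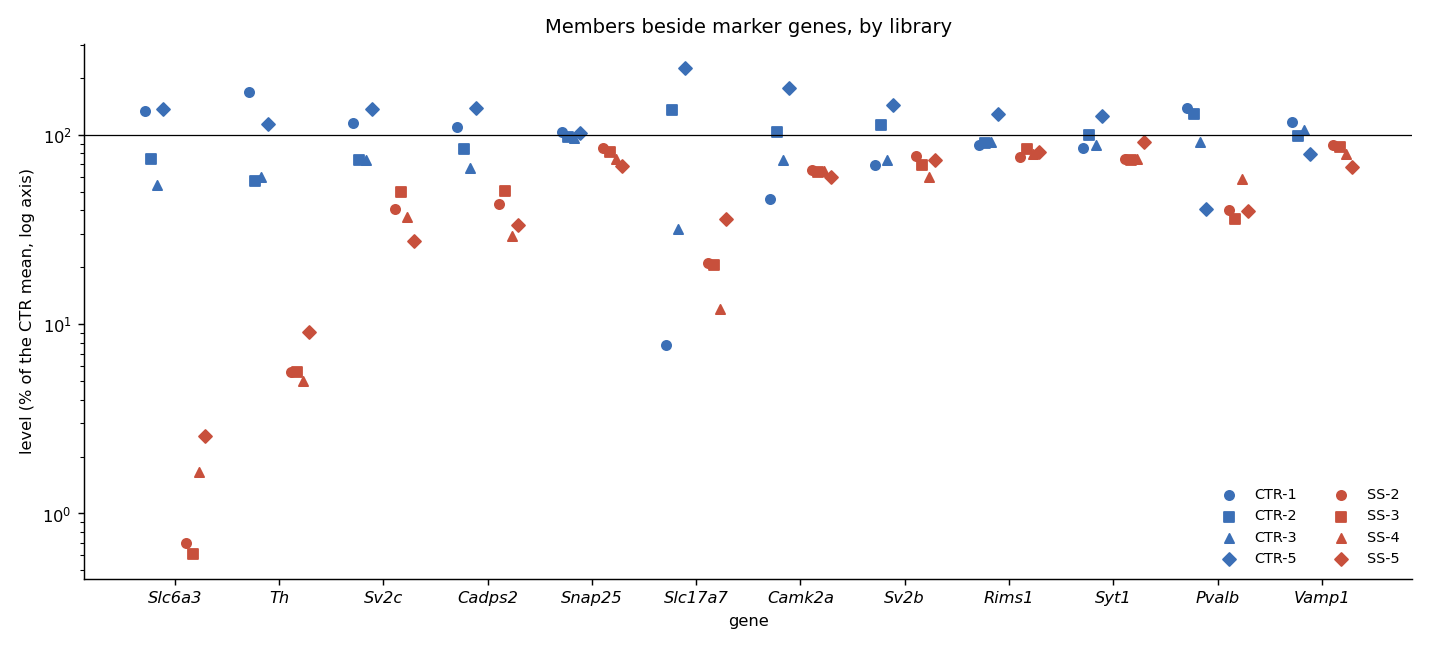
Level of 7 members and 5 marker genes in each library as a percentage of the CTR mean (log axis), with a symbol per library. In SS, Slc6a3 lies between 0.607 and 2.56%, Sv2c between 27.7 and 49.9% and Snap25 between 68.9 and 85.5%. CTR-5 is the highest library for Slc17a7, Camk2a, Sv2b, Rims1 and Syt1 and the lowest CTR library for Pvalb and Vamp1.

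Genes of forebrain excitatory neurons were highest in CTR-5 by their sum, as were Syt1, Sv2b and Rims1. The 8 genes of that list had a summed level of 522, 1199.7, 727 and 1854 CPM in CTR samples, against 591, 561, 555 and 581 CPM in SS samples, with Camk2a as top gene. The vesicular glutamate transporter Slc17a7 was at 13.9, 243, 56.9 and 403 CPM in CTR samples, against 37.9, 37, 21.5 and 64.5 CPM in SS samples (log2 fold change -2.16 ± 0.75 SE, edgeR adjusted p = 0.74, DESeq2 adjusted p = 0.48). CTR-5 and CTR-2 were the highest libraries for Slc17a7, as for Syt1 and Sv2b, and Slc17a7 was lowest in CTR-1. Its log2 fold change was -1.38 without CTR-5 and turned to 0.18 without CTR-2 and CTR-5. Of the list, Nrgn was called by DESeq2 (log2 fold change -0.88 ± 0.14 SE, edgeR adjusted p = 0.053, DESeq2 adjusted p = 7.1e-06). That is 12.5% of the list, beside 0.454% of all genes tested. In edgeR, 3 of 8 genes (37.5%, beside 3.7% of all genes tested) had an unadjusted p under 0.05, all lower in SS. Nrgn passed in edgeR without CTR-1 (adjusted p = 0.0165) and without CTR-3 (0.0451), in a range of 0.0165 to 0.307. Without CTR-2 and CTR-5 the log2 fold change of Nrgn was -0.56. The part of these neurons in the values of Syt1, Sv2b and Rims1 was not tested.

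The 12 genes of fast-firing and large projection neurons, cells in which Vamp1 is known to be expressed, summed to 2422, 2828, 2754 and 2419.8 CPM in CTR samples, against 2349, 2139, 2202 and 2016 CPM in SS samples, with Hcn2 as top gene, and no SS library reached a CTR library. Pvalb was at 68, 63.5, 44.8 and 20.04 CPM in CTR samples, against 19.8, 17.7, 28.8 and 19.6 CPM in SS samples, with CTR-5 again among the SS libraries. DESeq2 called 3 of the 12 genes (25%, beside 0.454% of all genes tested), Pvalb among them (adjusted p = 0.045). Of the 12, edgeR called 0, and 6 (50%, beside 3.7% of all genes tested) had an unadjusted p under 0.05 and were lower in SS. By sign alone, 9 of the 12 were lower and 3 higher. Pvalb passed in edgeR without CTR-5 (adjusted p = 0.0408, range 0.0408 to 0.999 over the libraries left out). What these cells add to the values of Vamp1 and Vamp2 was not tested.

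For glutamate neurons the summed level was 573 ± 181 CPM in CTR against 489.7 ± 24.4 CPM in SS (SD, n = 4, as for the lists that follow), led by Slc17a6 at 386 ± 46.6 and 443 ± 12.7 CPM. Of the GABA neuron markers, Gad1 was at 127 ± 11.4 and 132 ± 24.5 CPM, Gad2 at 189 ± 24.8 and 213 ± 65.5 CPM and Slc32a1 at 120.5 ± 16.8 and 128 ± 8.53 CPM. General neuron markers, led by Snhg11, were at 5759.5 ± 274 CPM in CTR against 5891 ± 91 CPM in SS. Snhg11 itself, a neuronal noncoding RNA, was at 1034 ± 381 and 1559 ± 148 CPM, while 7 of the 10 genes were lower in SS by sign and the median log2 fold change was -0.117. Neither DESeq2 nor edgeR called a gene of these 3 lists. At an unadjusted p under 0.05 in edgeR, 1 of 3 glutamate genes was lower in SS (33.3%) and 0 of 4 GABA genes passed. Of the 10 general neuron genes, 2 were lower (20%) and 1 higher (10%). All genes tested gave 3.7% lower and 2.85% higher. Thalamus genes, led by Calb2, were at 537 ± 120.0 CPM in CTR against 483 ± 9.93 CPM in SS, and oculomotor and cholinergic neuron genes, led by Slc5a7, at 6.58 ± 2.0 CPM in CTR against 5.65 ± 3.12 CPM in SS. At an unadjusted p under 0.05 in edgeR, 1 of 5 tested thalamus genes was lower in SS (20%, beside 3.7% of all genes tested). Of the 4 tested oculomotor and cholinergic genes 0 passed, and edgeR and DESeq2 called no gene of these lists.

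Genes of the hypothalamus and mammillary region, a neighbouring part of the brain, summed to 32.2, 82.1, 42.9 and 35.6 CPM in CTR samples, against 88.3, 77.2, 90.5 and 98.6 CPM in SS samples. The sum in CTR-2 lay within the range of SS, and the other CTR libraries were below it. Pmch, the precursor of melanin-concentrating hormone and the top gene, was at 0.207, 16.7, 1.90 and 6.65 CPM in CTR samples, against 34.3, 32.1, 32.7 and 50.3 CPM in SS samples. All SS libraries were above all CTR libraries (log2 fold change 2.54 ± 0.74 SE, edgeR adjusted p = 0.61, DESeq2 adjusted p = 0.42), and the bias-adjusted estimate of edgeR called Pmch (adjusted p = 0.0222, range 0.0119 to 0.999 over the alternatives). Of the 8 genes, 1 was higher in SS at an unadjusted p under 0.05 in edgeR (12.5%, beside 2.85% of all genes tested). With all libraries, 0 were called by DESeq2 or by edgeR's main test. The part of these cells in the values of the release machinery genes was not tested.

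Glial and vascular lists held 1 gene at an unadjusted p under 0.05 in edgeR, Cx3cr1 (named after its value was seen), and no gene called by edgeR or DESeq2. Cx3cr1 was lower in SS and is 1 of 10 microglial genes (10%, beside 3.7% of all genes tested). Oligodendrocyte genes, led by Mbp, summed to 30621 ± 4458 CPM in CTR against 28709 ± 1299.6 CPM in SS, and their precursors' genes, led by Gpr17, to 342 ± 41.1 CPM in CTR against 378 ± 25.5 CPM in SS. Astrocyte genes, led by Slc1a2, were at 4225 ± 347 CPM in CTR against 4109 ± 264 CPM in SS. Microglial genes were at 324 ± 45.1 CPM in CTR against 288 ± 13.9 CPM in SS, and endothelial and mural genes, led by Rgs5, at 432 ± 46.9 CPM in CTR against 449 ± 26.5 CPM in SS.

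The summed levels of other vesicle genes, outside the rule, were also read by library. Partners in priming and tethering summed to 4365, 4552, 4316 and 4694 CPM in CTR samples, against 4265, 4248, 4261 and 4228 CPM in SS samples, and vesicle membrane proteins to 6221, 6134, 5817 and 6278 CPM in CTR samples, against 5674, 5649.8, 5316 and 5738 CPM in SS samples. As for the sum of the members, no SS library reached a CTR library for either list. The vesicle membrane list includes Slc17a7 and Slc18a2, which are also on the lists of neuron markers. Their means were 179 and 158 CPM in CTR against 40.2 and 24.1 CPM in SS, and their part in this separation was not tested. Endocytosis proteins, at 6942 ± 336 CPM in CTR against 6850.2 ± 95 CPM in SS (SD, n = 4), had overlapping groups.

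Of 28 tested partners in priming and tethering, edgeR and DESeq2 called none, and the median log2 fold change was 0.026. In edgeR, 3 (10.7%) were lower and 3 (10.7%) higher in SS at an unadjusted p under 0.05, beside 3.7% and 2.85% of all genes tested. Rab3c, a small GTPase of the vesicle and the top gene, was at 727, 757, 734 and 796 CPM in CTR samples, against 720.4, 722, 723 and 702 CPM in SS samples. The highest SS value of Rab3c was just below the lowest CTR value. Rph3a, a Rab3 effector, was also without overlap at 714, 785, 734 and 678 CPM in CTR samples, against 621, 625, 664 and 599 CPM in SS samples (log2 fold change -0.21 ± 0.07 SE, edgeR adjusted p = 0.74, DESeq2 adjusted p = 0.29). The SS libraries were higher without overlap for Sytl2, Ppfia4 and Doc2a (log2 fold changes 0.41, 0.22 and 0.26). For Sytl2 the value was 0.16 without CTR-1 and CTR-2. Rph3a, Sytl2, Ppfia4 and Doc2a were chosen after their values were seen.

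Of 19 tested vesicle membrane proteins, 1 (Slc18a2, also on the dopamine list) was called by edgeR and by DESeq2, and the median log2 fold change was -0.064. This call is 5.26% of the list, beside 0.0847% (edgeR) and 0.454% (DESeq2) of all genes tested. At an unadjusted p under 0.05 in edgeR, 3 (15.8%) were lower in SS and 0 higher, beside 3.7% and 2.85% of all genes tested. These 3 were Slc18a2, Syp and Slc17a7, the last also on the glutamate and forebrain excitatory neuron lists. Syp (synaptophysin), the top gene, was at 1823, 1420.2, 1375 and 1363 CPM in CTR samples, against 1323, 1291, 1213 and 1327 CPM in SS samples (log2 fold change -0.21 ± 0.09 SE, edgeR adjusted p = 0.76, DESeq2 adjusted p = 0.58). The SS libraries were below all CTR libraries, of which CTR-1 was far higher than the rest. Without CTR-1 the log2 fold change of Syp was -0.10. Of the 25 endocytosis genes, 0 were called by edgeR or DESeq2 and 0 had an unadjusted p under 0.05 in edgeR (all genes tested, 3.7% lower and 2.85% higher), and 23 (92%) lay within 0.2 of no change on the log2 scale, beside 51.4% of all genes tested. Dnm1 (dynamin 1), the top gene, averaged 1264 ± 52.9 CPM in CTR against 1199 ± 27.4 CPM in SS (SD, n = 4).

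**Figure D5:**
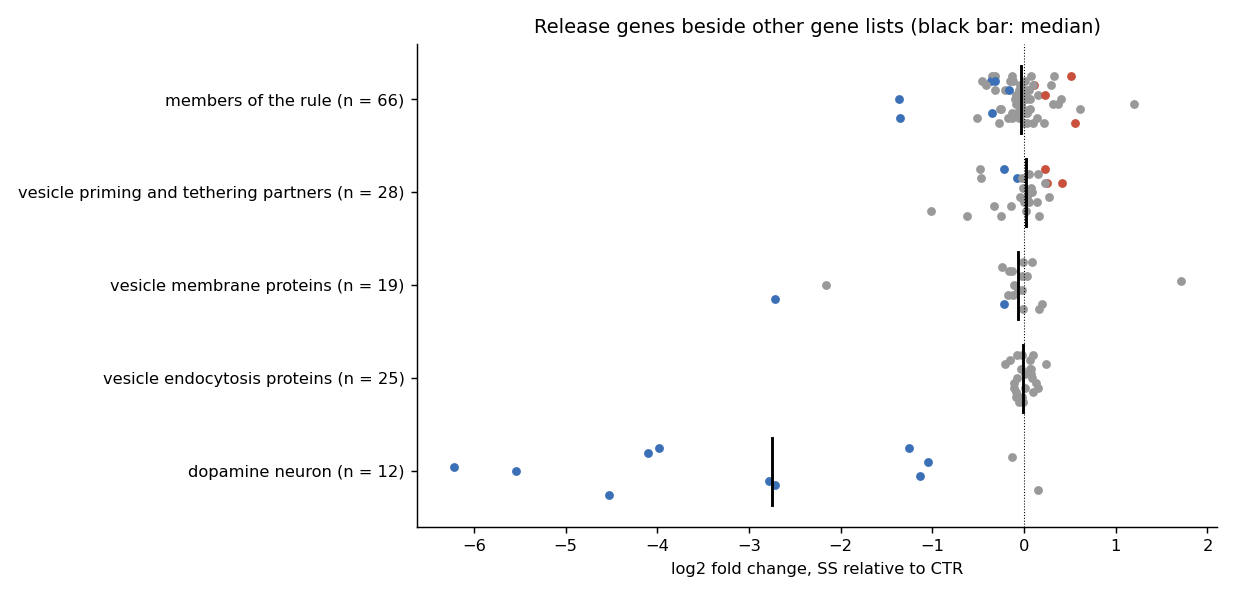
Log2 fold change of SS relative to CTR (horizontal axis) for the tested genes of the release machinery, of 3 other vesicle gene lists and of the dopamine neuron markers, with a point per gene and the median as a black bar. Blue and red mark genes with all SS libraries below or above all CTR libraries. The medians are -0.035 for the members, 0.026, -0.064 and -0.016 for the vesicle lists and -2.75 for the dopamine neuron markers.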

How the data were processed

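Counts come from RNA sequencing of VTA punches, with 4 mice per group. The authors used Cutadapt for trimming, STAR for alignment to mm10 and htseq-count with an Ensembl annotation for counting per gene, and deposited raw counts. Versions of these tools are not given in the sources used here. Counts were analysed in R 4.3.3 with edgeR 4.0.16: filterByExpr (minimum count 10, minimum total 15), TMM and the quasi-likelihood test with the version's default estimate, on a design of group alone, with p-values adjusted (Benjamini-Hochberg, threshold 0.05) over all 16538 genes. DESeq2 1.42.0 (the study names DESeq2 without a version) and limma voom 3.58.1 were alternatives, beside other normalizations, filters, thresholds, libraries left out, a replicate block and a sex covariate. Fold changes are SS relative to CTR. Overlap between groups was read on log2 CPM with a prior count of 2. Lengths and exon overlaps come from GENCODE M21, not from the annotation used for counting. The members and lists were chosen with earlier results of these data known. The lists cover other vesicle genes (priming and tethering, vesicle membrane, endocytosis) and markers of neuron types, neighbouring regions, glia and vessels. Named genes are members called by edgeR or DESeq2, members without overlap, the most abundant member of each family, close paralogs of these, the most abundant and the called genes of each list, and selected neuron markers. Other genes, given to complete a family or marked as such, were chosen after their values were seen. Some genes are not reported here.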

Additional observations from a re-analysis of the deposited data

Results flagged for a closer look

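Within a group of 4, the highest or lowest library stood apart where its gap to the nearest other library, over the group's range, passed Dixon's 95% critical value. Of 144 groups of values checked, 12 passed it, and chance gives about 1 in 20. Xist was high in CTR-5 (14997 counts, beside 0 to 3) and in SS-5 (6551 counts, beside 0). In CTR, Rims1 was high in CTR-5 (169 CPM, beside 116 to 121), Syp was high in CTR-1 (1823 CPM, beside 1363 to 1420.2), Cadps was low in CTR-1 (239 CPM, beside 334 to 336) and Hcn2 was low in CTR-5 (325 CPM, beside 436 to 444).

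Each such value in SS was that of SS-5. Syt1 was high there (750.5 CPM, beside 602 to 606), as were Slc18a2 (46.6 CPM, beside 15.9 to 17.2), Th (25.5 CPM, beside 14.1 to 15.8), Pmch (50.3 CPM, beside 32.1 to 34.3) and the summed oculomotor and cholinergic genes (10.3 CPM, beside 3.54 to 4.44). Rab3c was low in SS-5 (702 CPM, beside 720.4 to 723). The cause of these values was not tested.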

How the results depend on the processing

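The direction of the log2 fold change of 16 members and 15 other genes stayed the same under every alternative run, except that Slc17a7 turned to 0.18 without CTR-2 and CTR-5. Of 651 such values, 611 kept their direction and their side of the threshold, 32 passed the threshold where the main value did not, 7 no longer passed it and 1 changed sign. Most of these genes were named for a call, for groups without overlap or after their values were seen. The alternatives also reuse all or most of the same libraries, so a kept direction was largely set in advance. Beside 0 members called by edgeR (11 lower and 4 higher at an unadjusted p under 0.05), DESeq2 called 4, limma voom 1, the bias-adjusted estimate 2, DESeq2's size factors 1, upper-quartile normalization 1, no filter 2 and a mean count of at least 50 gave 2. Beside 14 genes called in all, these counts were 81 with DESeq2, 27 with the bias-adjusted estimate, 22 with no filter, 22 with a mean count of at least 50 and 7 at an adjusted p under 0.01.

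Leaving out 1 library gave 6 to 19 genes called and 0 to 1 members called. At an unadjusted p under 0.05, 4 to 11 members were lower and 2 to 4 higher, beside 2.06% to 6.59% and 1.47% to 6.8% of all genes. Without overlap, 6 to 9 members lay below and 4 to 7 above, beside 2.78% to 7.02% and 3.58% to 7.95% of all genes. The highest count below, 9 members without CTR-5, was 13.6%, beside 7.02% of all genes. DESeq2 called 2 to 6 members, among 41 to 684 genes. Without CTR-5 and SS-5, 9 genes were called, 11 members lay below and 10 above (beside 9.34% and 10.7% of all genes), and DESeq2 called 7 members among 399 genes. Without CTR-2 and CTR-5, 13 members (19.7%) lay below and 9 (13.6%) above, beside 12.4% and 14.5% of all genes. This setting was chosen after seeing the data, as were the fits without CTR-1 and CTR-2 and the DESeq2 fits with libraries left out. The cause of the other differences was not tested. Whether the replicate numbers pair the samples is not stated in the sources used here. Deviations of same-numbered libraries from their group means correlated at -0.00625, -0.00767 and 0.0603, beside -0.0935 to 0.0448 for other pairs. Such correlations over all genes tested cannot decide whether numbers share a litter or a handling step. With the replicate number as a block, 9 genes and 0 members were called. At an unadjusted p under 0.05, 12 members (18.2%) were then lower and 1 (1.52%) higher, beside 2.14% and 2.45% of all genes. With sex transcripts (high or low Xist) as a covariate, edgeR called 19 genes and 0 members. Sv2c was then at -1.35 (adjusted p = 0.103) and Cadps2 at -1.32 (0.131). At an unadjusted p under 0.05, 16.7% of the members were lower and 6.06% higher in that fit, beside 3.22% and 3.4% of all genes. With 4 animals per group and counts of a few CPM, levels such as those of Syt10, Vamp5 or Unc13d carry a wide error.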
